A study of Mus musculus with 2 samples.

Results

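The cytosolic ribosomal protein genes are the genes for the protein part of the ribosome that translates nuclear-encoded mRNA. They were taken from the count table of single-cell RNA-seq by symbol: Rpl or Rps followed by a number and an optional letter, x or l, together with Rplp0, Rplp1, Rplp2 and Rpsa, leaving out the Rps6k kinases and symbols that mark pseudogenes. The rule found 80 of 25778 genes, 49 named for the large subunit and 31 for the small subunit. Rpl29 is described apart from the other 79. Retinas of 2 genotypes were taken at postnatal day 30, both carrying Chx10-Cre, a transgene for a Cre-GFP fusion active in retinal progenitors. Ptbp1-Ctrl had unaltered Ptbp1 alleles, and Ptbp1-KO was Chx10-Cre;Ptbp1lox/lox, in which loxP sites flank the promoter and first exon of Ptbp1, the gene of an RNA-binding splicing regulator. Each genotype is 1 library of dissociated retina. A difference between the libraries therefore has no replicate check, no p-value is given, and genotype, animal and library preparation cannot be told apart.

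A ribosome joins a small subunit, which decodes the mRNA, to a large subunit, which forms peptide bonds, and each subunit holds 1 copy of most of its proteins. Most mRNAs of these genes begin with a C followed by a run of pyrimidines (a terminal oligopyrimidine tract), through which mTOR signalling controls their translation as a group. In the retina, rods are small cells with little cytoplasm around the nucleus, whereas Müller glia, the radial glia of the retina, are large.

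The Ptbp1-Ctrl library held 16421 cells and 32758836 UMIs (unique molecular identifiers, each counting 1 captured transcript), and the Ptbp1-KO library 14522 cells and 35328593 UMIs. The median cell held 1442 and 1740 UMIs, and 63 cell barcodes occurred in both libraries. Counts were summed per library and cell type, as annotated by the authors, and expressed as CPM, the counts scaled to 1000000 UMIs in all. Müller glia (MG), amacrine cells (AC), bipolar cells (BC), cones and rods were compared gene by gene. For retinal ganglion cells (RGC, 124 and 97 cells) and horizontal cells (HC, 17 and 7 cells) only summed levels and Rpl29 are given. Each type's own marker list had its highest summed CPM in that type in both libraries, but the 10 rod markers summed to between 3674 and 34878 CPM in the other types, with the retinal ganglion cells highest. Rod RNA was thus counted in every type, and its part in the values below was not tested. Ptbp1 was at 49.8 CPM in Müller glia of Ptbp1-Ctrl and 1.18 CPM in those of Ptbp1-KO, and its paralog Ptbp2 at 203 and 308 CPM. The methods state female mice, whereas 4 Y-linked genes were each at 43.1 CPM or more and Xist was at 0.153 and 0.170 CPM in the 2 libraries. Intervals are exact 95% intervals and cover counting error only.

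Over all cells of a library, every member but Rpl3l and Rpl39l lay between 68.7 and 1629 CPM. UMIs of this 3′ assay count transcript ends, so levels were not divided by length. The highest was Rps29, a zinc-binding protein of the small subunit, with 1418 CPM in Ptbp1-Ctrl and 1629 in Ptbp1-KO. It was followed by Rps24 at 1041 and 863 CPM, by Rpl13 at 912 and 726 CPM, and by Rpl9 at 914 and 691 CPM. Next came Rps27a, whose product is made as a fusion with ubiquitin, at 853 and 694 CPM. At the low end were Rpl23a, which lies at the exit of the peptide tunnel, at 144 and 123 CPM, and Rpl5, which carries the smallest RNA of the large subunit into the ribosome, at 139 and 120 CPM. Genes whose proteins stand in equal numbers in the ribosome thus differed widely in captured mRNA. The lowest 3 members were all paralogs of other members: Rps27l at 75.3 and 68.7 CPM, Rpl3l with 11 and 9 UMIs in the whole libraries, and Rpl39l with 3 and 0 UMIs, where a count of 0 allows up to 3.

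**Figure D1:**
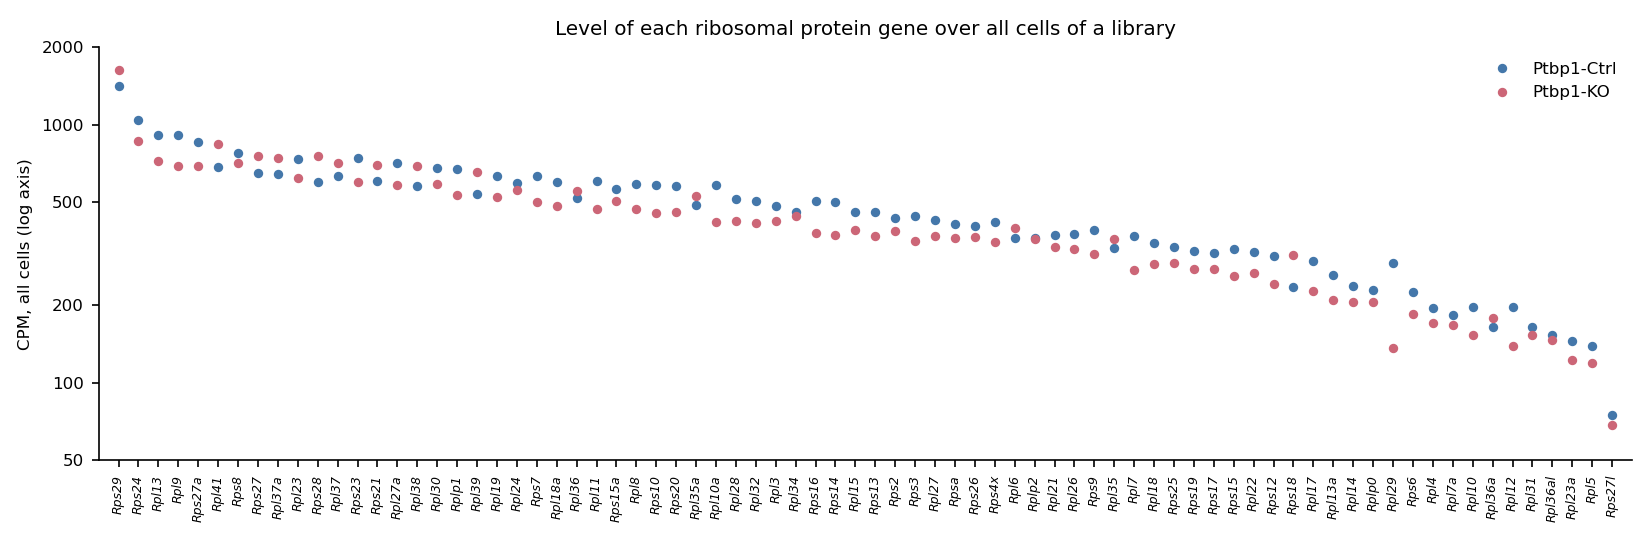
Level of each member over all cells of a library, in CPM on a log axis, ordered by the mean of the 2 libraries; blue points are Ptbp1-Ctrl and red points Ptbp1-KO. Rpl3l and Rpl39l, near 0, and a few members not reported here are not drawn. Rps29 is highest in both libraries, and the widest gap between the points is at Rpl29, with 292 CPM in Ptbp1-Ctrl and 136 in Ptbp1-KO.

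Of the paralogs, Rpl36al was the one with a level like that of its partner. It gave 50.1% and 45.2% of the Rpl36a and Rpl36al UMIs of rods in Ptbp1-Ctrl and Ptbp1-KO, and 40.01% and 39.3% in Müller glia. Rps27l, a p53-inducible relative of Rps27, gave 14.5% and 13.1% of its pair in Müller glia, against 8.75% and 7.68% in rods and 6.89% and 6.64% in amacrine cells. Its level of 169 and 168 CPM in Müller glia compared with 59.5 and 57.2 CPM in rods, so Müller glia stood highest for this gene in both libraries. Rpl3l, a form of Rpl3 known from striated muscle, gave at most 0.121% of its pair in any of the 5 types, and Rpl39l, known from testis, at most 0.0243%. Rpl10l and Rps4l were not among the genes of the table used here.

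Together, the 79 members other than Rpl29 made up between 2.84% and 4.55% of the UMIs of the 5 main types in Ptbp1-Ctrl. Müller glia were highest, at 4.55% (95% interval 4.53 to 4.56), followed by rods at 3.66% (3.65 to 3.67), cones at 3.42% (3.39 to 3.44), bipolar cells at 3.33% (3.32 to 3.34) and amacrine cells at 2.84% (2.82 to 2.86). In Ptbp1-KO, Müller glia were again highest at 3.98% (3.96 to 3.99) and amacrine cells lowest at 2.95% (2.94 to 2.97), while rods stood at 3.15% (3.14 to 3.15), below cones at 3.43% (3.40 to 3.46) and bipolar cells at 3.32% (3.31 to 3.33). The place of rods in this order thus differed between the libraries, and that of Müller glia and amacrine cells did not. Retinal ganglion cells had 4.16% and 4.06%. Horizontal cells had 2.95% and 2.29%, from only 17 and 7 cells. The types differed in depth, with median UMIs per cell from 1088 in rods to 3333 in Müller glia of Ptbp1-Ctrl, and the part of depth in the order was not tested.

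The share also varied from cell to cell. The median rod of Ptbp1-Ctrl spent 2.23% of its UMIs on these genes, with quartiles of 1.47% and 4.32%, and the median Müller glial cell 4.48%, with quartiles of 2.93% and 5.63%. The medians in Ptbp1-KO were 1.88% (quartiles 1.31% and 3.19%) in rods and 3.55% (2.497% and 4.95%) in Müller glia. In the other types the medians of the libraries lay closer together: 3.24% and 3.17% in cones, 3.28% and 3.26% in bipolar cells and 2.64% and 2.64% in amacrine cells. In each of these 5 types the distance between the quartiles exceeded that between the medians of the libraries.

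The rods fell into 4 deposited clusters that differed widely in this share. In Ptbp1-Ctrl it was 1.72% in cluster 0, 2.33% in cluster 1, 3.83% in cluster 2 and 7.16% in cluster 3. Cluster 3 had a median mitochondrial share of 5.12% and 7300 CPM of Malat1, a nuclear noncoding RNA, whereas cluster 0 had 0.662% and 35006 CPM. Cluster 1, with a low share, had a median mitochondrial share of 4.20% and 27773 CPM of Malat1, so the 3 measures did not move together in every cluster. Because the clusters were made from the same counts, members included, the gap between clusters is a description. Among Müller glia, cluster 16 stood at 2.19% against 4.76% and 4.14% in clusters 4 and 22, and among bipolar cells, clusters 10 and 20 stood at 2.21% and 1.504% against 3.22% to 3.66% in the other clusters.

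**Figure D2:**
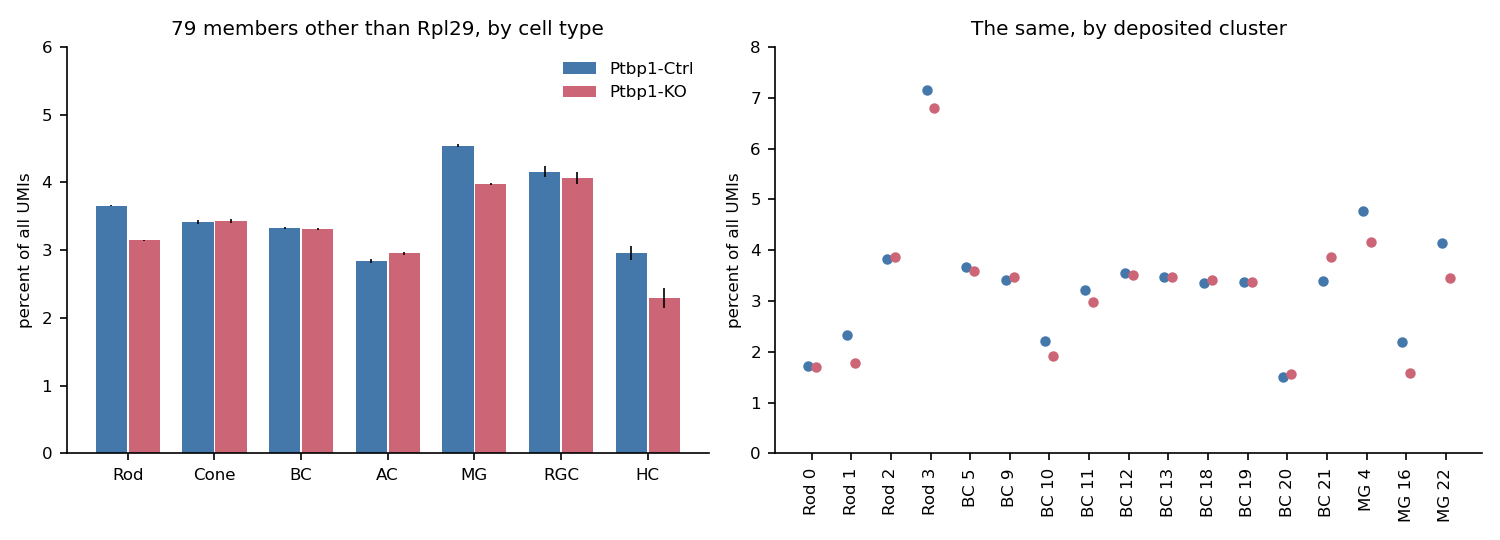
Share of all UMIs, in percent, given to the 79 members other than Rpl29, on the left by cell type and on the right by deposited cluster for rods, bipolar cells and Müller glia; blue is Ptbp1-Ctrl, red is Ptbp1-KO, and error bars are exact 95% counting intervals. Rods are lower in Ptbp1-KO as a type (3.66% and 3.15%) but nearly level in clusters 0 and 2, whereas Müller glia are lower in each of their 3 clusters.

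Members did not keep the same proportions in every type. To see this, each member was expressed relative to the sum of members in the same type and library, and its range over the 5 types was taken in each library. The smaller of these 2 ranges had a median of 0.33 on the log2 scale over the 76 members that passed the filter (mean of at least 50 CPM and at least 50 UMIs) in all 5 types. The type with the highest relative level was the same in both libraries for 59 of the 76, and the type with the lowest for 61. The 6 members with the widest range are described here, from the raw CPM.

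Rps6, the small-subunit protein phosphorylated by S6 kinases, was highest in cones, at 320 CPM in Ptbp1-Ctrl and 293 in Ptbp1-KO, and had its lowest relative level in Müller glia, at 214 and 161 CPM. Rpl10a, of the large subunit, was highest in rods, at 780 and 544 CPM, and lowest in amacrine cells, at 352 and 272 CPM. Rps23, which forms part of the decoding centre, was also highest in rods, at 988 and 766 CPM, with 479 and 430 CPM in bipolar cells. Each of these 3 members thus had its highest relative level in a photoreceptor type in both libraries.

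Rpl10, which is added late in the maturation of the large subunit, went the other way, with 352 and 259 CPM in Müller glia and 134 and 109 CPM in rods. Rpl18 followed the same order, with 549 and 452 CPM in Müller glia and 269 and 216 CPM in rods. On the log2 scale, Müller glia exceeded rods by 1.40 and 1.254 for Rpl10 and by 1.03 and 1.06 for Rpl18, against a median over the 76 members of 0.32 and 0.36. Rpsa, the small-subunit protein also known as a laminin receptor precursor, was at 326 and 289 CPM in Müller glia and 472 and 377 CPM in rods, so it was lower in the type in which the sum was highest.

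**Figure D3:**
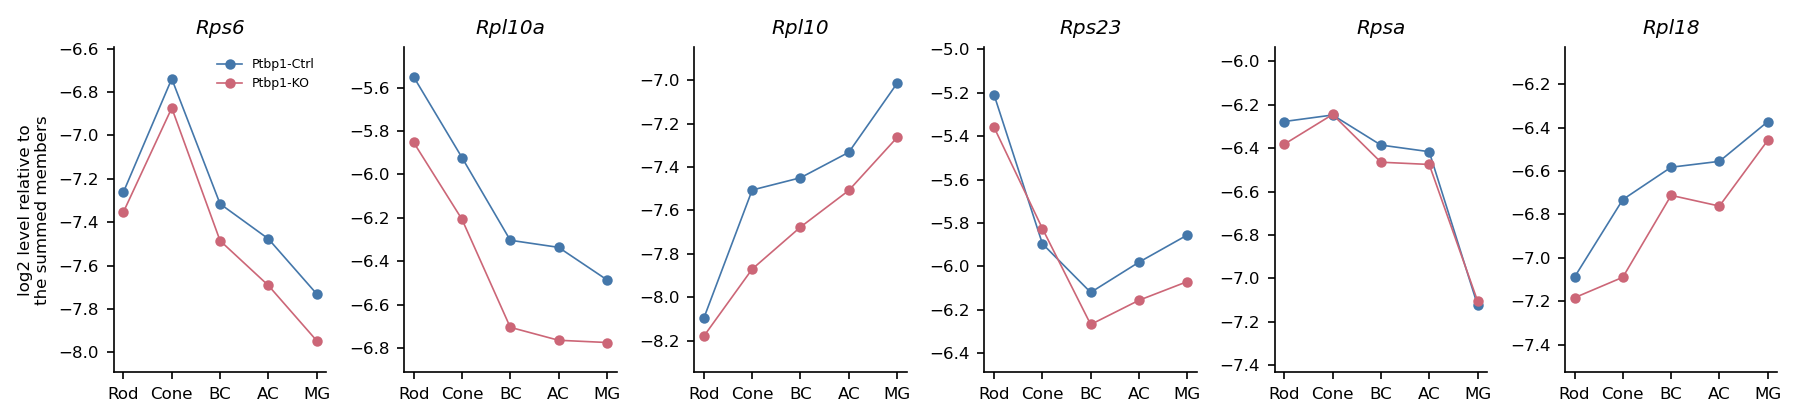
Log2 level of the 6 members with the widest range over cell types, each relative to the summed members of the same type and library; blue is Ptbp1-Ctrl, red is Ptbp1-KO, and every panel spans 1.5 log2 units. The 2 libraries trace the same shape for each gene: Rps6 peaks in cones, Rpl10a and Rps23 in rods, and Rpl10 and Rpl18 in Müller glia, where Rpsa is lowest.

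The sum of members was lower in Ptbp1-KO in rods, by 0.22 on the log2 scale (95% interval -0.22 to -0.21), and in Müller glia, by 0.19 (-0.20 to -0.18). It was nearly equal in cones, with a log2 ratio of 0.01 (-0.01 to 0.02), and in bipolar cells, with -0.01 (-0.01 to 0.00). In amacrine cells it was slightly higher, with 0.06 (0.04 to 0.07). Within bipolar clusters the ratio ran from -0.21 (-0.25 to -0.18) in cluster 10 to 0.18 (0.16 to 0.21) in cluster 21. Amacrine clusters 6, 14 and 15 had 0.12, -0.09 and 0.05. The rods of the 2 libraries were spread unequally over the clusters. Cluster 0 held 45.9% and 58.7% of the rods of the libraries in the same order, and cluster 3, with the highest share of ribosomal protein mRNA, held 18.2% and 10.5%. Within clusters the log2 ratio of the sum was -0.02 in cluster 0, -0.39 in cluster 1, 0.01 in cluster 2 and -0.08 in cluster 3. With the clusters weighted as in Ptbp1-Ctrl, an alternative chosen after the data were seen, the rod ratio was -0.06. The clusters were made from the same counts, members included, so this weighting cannot show that the cluster mix made the difference. The Müller glial difference was present in each cluster, with -0.20 in cluster 4, -0.47 in cluster 16 and -0.26 in cluster 22, and was -0.21 with the clusters weighted alike. Malat1 stood at 52490 and 63410 CPM in Müller glial cluster 4, and the median mitochondrial share there at 2.70% and 2.01%. The 10 rod markers summed to 7620 and 5990 CPM in Müller glia. The part of these in the result was not tested.

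Gene by gene, the median log2 ratio of the members other than Rpl29 was -0.30 in rods (77 members passing the filter), -0.09 in cones (77), -0.10 in bipolar cells (76), -0.04 in amacrine cells (76) and -0.28 in Müller glia (77). With a minimum of 500 CPM the median turned to 0.029 in bipolar cells and 0.11 in amacrine cells, and with the clusters weighted as in Ptbp1-Ctrl that of rods was -0.15. Over all genes that passed the filter the medians were 0.00, -0.02, -0.01, -0.01 and -0.02. A gene was counted as past the fold when it was at least 25% higher in Ptbp1-KO or, by the same ratio, 20% lower. In rods, 33 of the 77 members (42.9%) were lower past this fold and 1, Rps18, was higher, whereas 3.42% of all 3855 genes were lower and 4.07% higher. The 34 rod members past the fold were 10 with the clusters weighted as in Ptbp1-Ctrl. They were 53 with cells of at least 1000 UMIs thinned to 1000 and other cells left out. No share of all genes past the fold is given for these settings. In Müller glia, 35 of 77 members (45.5%) were lower and 2, Rps18 and Rps28, higher, against 7.37% and 5.8% of 4205 genes.

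In the other 3 types more members lay past the fold on the higher side than on the lower. In cones, 11 of 77 members were higher and 6 lower, against 8.38% and 8.76% of 3997 genes, so the lower share of members was near the background. These 17 became 30 with cells thinned to 1000 UMIs, a setting for which no share of all genes is given. In bipolar cells, 9 of 76 were higher and 3, Rpl10a, Rpl17 and Rpl12, lower, against 2.71% and 2.59% of 4176 genes. In amacrine cells, 12 of 76 were higher and 1, Rpl10a, lower, against 5.82% and 4.67% of 4522 genes. The sums with the fewest UMIs were cones, with 1745145 in Ptbp1-Ctrl and 1425527 in Ptbp1-KO, and amacrine cells of Ptbp1-Ctrl, with 1956373.

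Ribosomal protein mRNAs are abundant, so the members with a mean of at least 500 CPM were also set beside all genes at that level. In rods, 13 of 28 such members were lower and none higher, against 9.51% and 3.04% of 263 genes. In Müller glia, 16 of 38 were lower and 1, Rps28, higher, against 14.1% and 6.45% of 248 genes. In cones 9 of 28 were higher and none lower, against 7.72% and 4.88% of 246 genes. In bipolar cells 8 of 24 were higher and none lower, against 5.31% and 2.45% of 245 genes, and in amacrine cells 9 of 19 were higher and none lower, against 6.58% and 2.63% of 228 genes. The members are themselves among the genes of these backgrounds.

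In all 5 types Rpl29, a small basic protein of the large subunit also known for binding heparin, had the lowest ratio of the members that passed the filter. Its level in Ptbp1-Ctrl and Ptbp1-KO was 294 and 132 CPM in rods, 314 and 143 CPM in cones, 269 and 131 CPM in bipolar cells, 232 and 114 CPM in amacrine cells and 338 and 169 CPM in Müller glia. Every type in Ptbp1-KO was below every type in Ptbp1-Ctrl. The log2 ratios were -1.15 (-1.23 to -1.08) in rods, -1.13 (-1.37 to -0.90) in cones, -1.04 (-1.13 to -0.94) in bipolar cells, -1.02 (-1.21 to -0.83) in amacrine cells and -1.004 (-1.12 to -0.89) in Müller glia. The intervals of all 5 types overlapped.

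The next lowest member was Rpl12 in rods and Müller glia (-0.54 and -0.68), Rps16 in cones (-0.45) and Rpl10a in bipolar and amacrine cells (-0.41 and -0.37), so Rpl29 stood below the other 76 or 77 that passed the filter in each type. Among all genes that passed the filter its rank from the lowest was 6 in rods, 5 in cones, 5 in bipolar cells, 4 in amacrine cells and 8 in Müller glia. It was lower in Ptbp1-KO in each of the 21 clusters of these types, with log2 ratios from -1.56 to -0.59. In retinal ganglion cells it had 74 and 35 UMIs, a log2 ratio of -0.87 (-1.49 to -0.27), and in horizontal cells 19 and 4 UMIs. Besides Rpl29, 4 of the genes that start within 200 kb of it on chromosome 9 (chr9:106429454-106431568, mm10, plus strand) passed the filter in at least 1 type, and their directions differed: in rods the log2 ratio was 3.55 for Poc1a, -0.82 for Dusp7, 2.63 for Abhd14b and 0.30 for Pcbp4. In Müller glia Abhd14b was at -0.33 (-0.58 to -0.08). Whether genotype or another difference between the animals accompanies this stretch of chromosome 9 was not tested.

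**Figure D4:**
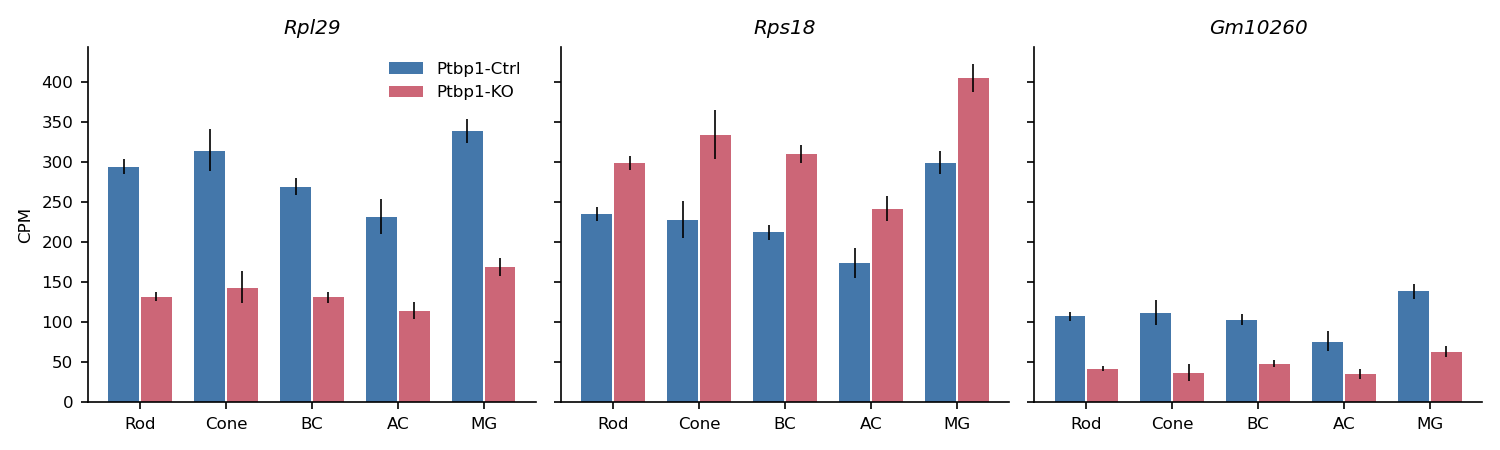
CPM of Rpl29, Rps18 and Gm10260, a copy of Rps18, in 5 cell types; blue bars are Ptbp1-Ctrl, red bars Ptbp1-KO, and error bars are exact 95% counting intervals. Rpl29 is at 232 to 338 CPM in Ptbp1-Ctrl and 114 to 169 CPM in Ptbp1-KO, while Rps18 is higher and Gm10260 lower in Ptbp1-KO in every type.

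The remaining members separated by the length of their protein. This split was chosen after the values were seen and carries no test. Of the 12 members with fewer than 110 codons that passed the filter in all 5 types, 11 were higher in Ptbp1-KO in all 5. The other, Rpl36al, was mixed. Any difference in sign was counted, and Rpl36 in rods was at 0.01 (-0.04 to 0.06). Rps27l, with 84 codons, missed the filter in bipolar cells and had -0.06 in rods and -0.01 in cones. Of the 64 with 110 codons or more, 39 were lower in all 5 types and 2, Rps18 and Rpl6, were higher in all 5. Among all 2583 genes passing in all 5 types, 9.29% were higher in every type and 17.7% lower in every type.

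Rpl41, the shortest with 25 codons, was at 678 and 817 CPM in rods and at 520 and 721 CPM in amacrine cells, log2 ratios of 0.27 (0.23 to 0.31) and 0.47 (0.37 to 0.58). Rpl39, with 51 codons, lines the peptide exit tunnel and had ratios of 0.25 in rods, 0.40 in cones, 0.36 in bipolar cells, 0.36 in amacrine cells and 0.31 in Müller glia. Rps28, with 69 codons, lies near the mRNA exit of the small subunit and had 0.23, 0.54, 0.45, 0.46 and 0.36 in the same order. For Rps27, a zinc-finger protein with 84 codons, the ratios were 0.15, 0.48, 0.45, 0.35 and 0.16, and for Rps21, with 83 codons, 0.10, 0.35, 0.37, 0.49 and 0.17. Rps29, with 56 codons and the highest level of all, had 0.09, 0.47, 0.39, 0.44 and 0.15. In each of these the ratio was smaller in rods and Müller glia than in cones, bipolar cells or amacrine cells.

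The members named here for their lowest ratios had between 132 and 270 codons. Rpl12, at the base of the stalk that receives translation factors, has 165 codons and was at 188 and 129 CPM in rods and 255 and 159 CPM in Müller glia, log2 ratios of -0.54 (-0.63 to -0.45) and -0.68 (-0.80 to -0.55). Rpl10a, with 216 codons, had -0.52 in rods, -0.28 in cones, -0.41 in bipolar cells, -0.37 in amacrine cells and -0.48 in Müller glia. Rps12, of the small subunit, had -0.50 in Müller glia. Rps16 (-0.45), Rpl17 (-0.38) and Rpl10 (-0.36) were lowest in cones. In bipolar cells Rpl17 had -0.35 and Rpl12 -0.33, and in amacrine cells Rpl7 had -0.27 and Rpl12 -0.27.

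By class of coding length, the medians of members with fewer than 100 codons were 0.13 in rods, 0.43 in cones, 0.39 in bipolar cells, 0.45 in amacrine cells and 0.16 in Müller glia. Members with 150 to 199 codons had medians of -0.38, -0.17, -0.18, -0.12 and -0.35. Those with 200 codons or more had -0.30, -0.15, -0.12, -0.12 and -0.40. Across members, Spearman's rho between coding length and log2 ratio lay between -0.56 and -0.45 in the 5 types (76 or 77 members, which share libraries and depth). Other genes with fewer than 100 codons did not show such a gap: their medians were -0.07, -0.05, -0.02, 0.05 and -0.02, from 119 to 154 genes. By length of the whole transcript, a gap between the shortest class and some longer ones was present outside the members too, but not over the whole range. Other genes with transcripts under 450 nucleotides had medians of 0.11, 0.13, 0.16, 0.30 and 0.15, from 26 to 30 genes, beside 0.13, 0.44, 0.39, 0.45 and 0.16 for the 8 members of that class. Other genes of 700 to 999 nucleotides had medians of -0.11, -0.12, -0.10, -0.05 and -0.10. Those of 1000 nucleotides or more, from 3291 to 3919 genes, had 0.01, -0.02, 0.00, -0.01 and -0.01. Spearman's rho between transcript length and log2 ratio was 0.20, 0.13, 0.07, -0.01 and 0.11 in other genes. In members it lay between -0.42 and -0.39. A length-dependent difference between the 2 library preparations and one between the genotypes cannot be told apart.

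**Figure D5:**
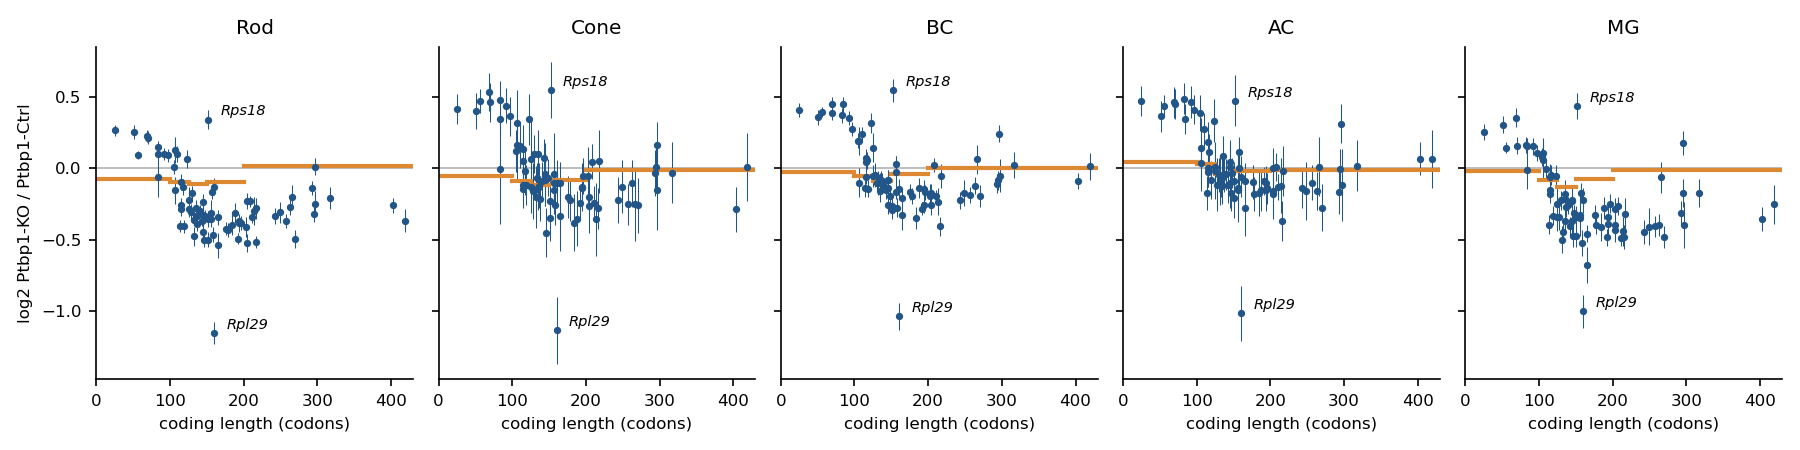
Log2 ratio of Ptbp1-KO over Ptbp1-Ctrl of each member that passed the filter, against its coding length in codons, in 5 cell types; bars are exact 95% counting intervals, and orange lines are the medians of all other genes in 5 classes of coding length. Members under 100 codons lie above 0 with few exceptions and most longer ones below it, while Rps18 and Rpl29 stand apart in every panel.

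The start of the gene was read for some members with high or low ratios and a given start site, to show which begin with a pyrimidine run. They are not all the extremes: Rpl18 had its lowest ratio, -0.35, in cones and was near the median member in rods, with -0.31. RefSeq start sites on GRCm38.p6 were given for 60 of the 80 members, with 72 starts in all. The windows below hold 15 bases on each side of the annotated start, 5′ to 3′ on the strand of the gene, with capitals marking a C followed by at least 5 bases that are each C or T. The first 4 genes were higher in Ptbp1-KO and the last 4 lower.
Rps18, chr17:33955651-33955680, minus strand: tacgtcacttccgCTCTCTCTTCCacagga
Rps27, chr3:90213634-90213663, minus strand: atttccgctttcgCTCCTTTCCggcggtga
Rpl39, chrX:37085208-37085237, minus strand: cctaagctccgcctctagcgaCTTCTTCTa
Rpl41, chr10:128549154-128549183, minus strand: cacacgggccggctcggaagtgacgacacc
Rpl18, chr7:45718056-45718085, plus strand: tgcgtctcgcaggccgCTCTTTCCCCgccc
Rpl12, chr2:32961697-32961726, plus strand: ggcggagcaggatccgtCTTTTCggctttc
Rps12, chr10:23787195-23787224, minus strand: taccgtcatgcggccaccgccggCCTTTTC
Rps16, chr7:28350674-28350703, plus strand: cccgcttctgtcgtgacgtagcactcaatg

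Of all such windows read for members with high or low ratios, 4 of 8 from 7 higher genes and 5 of 8 from 7 lower genes held a pyrimidine run. Rpl41 and Rps16, 1 from each side, had none. Within 20 bases of the start such a run stood in 42 of 72 member starts (58.3%), against 29.8% of the 21732 starts of all genes in the table. It was found in 6 of the 14 starts of members with fewer than 110 codons and in 36 of the 58 starts of longer members. The letters CGGAAG, the core of the site for ETS-family factors such as GABP, were found on either strand, in the 250 bases before and 50 after the start, in 62.5% of member starts and 21.6% of all starts. They stood in all 14 starts of the shorter members and in 31 of the 58 of the longer ones. TATAAA, 10 to 40 bases before the start, was in none of the member starts and in 1.68% of all starts. Such a match is a description of the sequence, and annotated starts can lie some bases from the true one.

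Rps18, a protein in the head of the small subunit with 152 codons, had the highest ratio of any member in every type but amacrine cells, where Rps21 stood at 0.49 and Rps18 at 0.48. Its level was 235 and 298 CPM in rods, 227 and 333 CPM in cones, 212 and 310 CPM in bipolar cells, 174 and 242 CPM in amacrine cells and 299 and 405 CPM in Müller glia. Its log2 ratios were 0.34 (0.28 to 0.41), 0.55 (0.36 to 0.75), 0.55 (0.47 to 0.63), 0.48 (0.29 to 0.66) and 0.44 (0.34 to 0.53). Gm10260, an intronless copy of this mRNA annotated as protein coding on chromosome 13 (chr13:97760072-97760632, mm10), had the opposite sign in every type. It was at 108 and 42.3 CPM in rods, 111 and 36.5 CPM in cones, 103 and 48.4 CPM in bipolar cells, 75.7 and 35.3 CPM in amacrine cells and 139 and 62.9 CPM in Müller glia, with log2 ratios from -1.61 to -1.09.

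The annotated transcripts of Rps18 and Gm10260, 560 and 561 bases long, align with 94.4% identity over 574 columns. They differ by 5 substitutions, 4 of them in the coding sequence, by a gap of 13 bases after the first base of Rps18 and by a gap of 14 bases before its last. Between these gaps, a read that covers no substitution matches both genes, and how such reads were counted was not tested. The coding places farthest from and nearest to the 3′ end are shown, with the differing base in capitals and positions counted from 1 at the A of the start codon.
Rps18, coding positions 172 to 201: gaactcacggaggaTgaggtggagcgagtg
Gm10260, coding positions 172 to 201: gaactcacggaggaCgaggtggagcgagtg
Rps18, coding positions 417 to 446: tggccgcaggggccGaactgtgggtgtatc
Gm10260, coding positions 417 to 446: tggccgcaggggccAaactgtgggtgtatc

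With the UMIs of both genes summed, the log2 ratio was -0.01 (-0.07 to 0.05) in rods, 0.13 (-0.05 to 0.30) in cones, 0.18 (0.12 to 0.25) in bipolar cells, 0.15 (-0.01 to 0.31) in amacrine cells and 0.10 (0.01 to 0.18) in Müller glia. The summed pair was nearer to 0 than either gene alone in every type, and above the medians of members of 150 to 199 codons. A sum of genes with opposite signs has to lie between them, so it cannot show whether reads were shared. Most members have pseudogenes: RefSeq names at least 1 for 62 of the 80, 6 for Rps18 and 5 for Rpl29. Whether the counts of any member depend on how reads were shared out was not tested.

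The P-stalk proteins, which contact the elongation factors, did not move as a unit. Rplp1 was at 771 and 583 CPM in rods and 833 and 634 CPM in Müller glia, with log2 ratios of -0.40, -0.15, -0.14, -0.18 and -0.39 in rods, cones, bipolar cells, amacrine cells and Müller glia. Rplp2, its partner in the stalk with nearly the same length (115 and 114 codons), was at 394 and 370 CPM in rods and 371 and 355 CPM in Müller glia, with ratios of -0.09, 0.14, 0.07, 0.19 and -0.06. Rplp0, the base of the stalk, had -0.21, -0.03, 0.02, 0.02 and -0.17, and Rpsa had -0.32, 0.01, -0.08, 0.00 and -0.17. Rplp1 was thus the lower of the dimer's 2 partners in all 5 types.

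Parts of the ribosome whose symbols lie outside the rule were close to the members. Such genes numbered 7, and 5 of them passed the filter in each type, with medians of -0.31, -0.09, -0.13, -0.07 and -0.22 in the order above. Fau, which yields a small-subunit protein fused to a ubiquitin-like domain, was at 882 and 709 CPM in rods and 699 and 702 CPM in bipolar cells. Rps3a1 was at 702 and 497 CPM in Müller glia, a log2 ratio of -0.50 (-0.57 to -0.43), and Rack1, a scaffold on the small subunit, at 192 and 142 CPM in rods, -0.43 (-0.52 to -0.35).

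Translation factors and other genes known to have pyrimidine-tract mRNAs were listed, and 15 of 16 passed the filter in each type. Their medians were -0.19 in rods, -0.09 in cones, -0.09 in bipolar cells, 0.02 in amacrine cells and -0.29 in Müller glia. In Müller glia all 15 were below 0, as were 2307 of all 4205 genes. Past the fold 3 of the 15 were lower, against 7.37% of all genes, namely Tpt1, at 981 and 642 CPM, Eef1g, at 148 and 105 CPM, and Eef1b2, at 210 and 162 CPM. The elongation factor Eef1a1 was at 671 and 725 CPM in bipolar cells and at 788 and 694 CPM in Müller glia. Mitochondrial ribosomal proteins, which serve the separate ribosome of the mitochondrion, had medians of -0.11, -0.17, -0.09, -0.03 and -0.10, with 31 to 42 of 78 genes passing. In cones 14 of 42 of them were lower past the fold and 2, Mrpl9 and Mrps5, higher, against the 8.76% and 8.38% of all genes given above. Ribosome biogenesis factors were too low for a summary, with 3 to 7 of 24 passing. Ncl (nucleolin), one of them, was at 323 and 374 CPM in rods and 368 and 455 CPM in amacrine cells. Its log2 ratios there were 0.21 (0.15 to 0.27) and 0.31 (0.18 to 0.44). They were 0.13 (-0.03 to 0.30) in cones, 0.18 (0.11 to 0.24) in bipolar cells and 0.06 (-0.04 to 0.16) in Müller glia.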

How the data were processed

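Papain-dissociated retinas were profiled by droplet 3′ single-cell RNA-seq. Per the labels and methods, the authors aligned reads to mm10 with Cell Ranger 7.0.1 and filtered and clustered cells in Seurat 4. The annotation, and whether intronic reads were counted, are not given in the sources used here. The deposited counts are whole UMIs per gene and cell. The deposited metadata give the library, cluster, cell type, total counts and the percent of mitochondrial counts of each cell, and 2 further columns were not used. Deposited cells held 701 to 9998 UMIs and at most 19.9% mitochondrial counts, and all were kept. Scrublet scores (scanpy 1.11.5) called 0 doublets, so its automatic threshold did not work, and the highest 5% of scores were left out only as an alternative.

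UMIs were summed per library and type and divided by the total of the sum (CPM). A gene entered a comparison with a mean of at least 50 CPM and at least 50 UMIs over both libraries. CPM have exact Poisson intervals, and log2 ratios exact conditional binomial intervals, checked on simulated data. With 1 library per group no test was made. Named genes were Rpl29, the P-stalk proteins and Rpsa, the 5 highest and 5 lowest members, the 3 highest and 3 lowest ratios per type, the 6 widest ranges over types, paralogs, ribosome parts outside the rule, Ptbp1, Ptbp2 and genes near Rpl29. Rpl6, other short members, the length classes, Gm10260, Tpt1, Eef1g, Eef1a1 and Ncl were added after values were seen. The members and lists were chosen with earlier results of these data known. TMM factors came from edgeR 4.0.16 (R 4.3.3). Coding lengths and positions came from GENCODE M21. Single values of a few genes that this rule names are not reported here.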

Additional observations from a re-analysis of the deposited data

How the results depend on the processing

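The log2 ratios of Rpl29, of the sum and of the median member, and the counts past the fold, were recomputed for 5 cell types. Each was recomputed only under the alternatives that apply to it. Of 165 recomputed values 128 stayed within counting error (for counts, within 1.5 times), 37 moved, and no ratio past the fold turned its sign. The cause of the moves was not tested. The log2 ratio of the sum in rods was -0.27 with TMM scaling, -0.225 without mitochondrial genes in the denominator, -0.30 with equal weight per cell, -0.36 with cells thinned to 1000 UMIs and -0.061 with the cluster mix of Ptbp1-Ctrl, which was chosen after seeing the data. In cones it was -0.053, -0.059 and -0.089 with TMM, equal weight and thinning, and in bipolar cells -0.040, -0.053 and -0.073, so the sign in cones, within counting error of 0, was opposite. In amacrine cells it was 0.075, 0.012, 0.028 and, with the cluster mix, 0.037. In Müller glia it was -0.23 with TMM, -0.22 with thinning and -0.21 with the cluster mix. Rpl29 stood at -1.25 in rods and -1.15 in Müller glia with thinning and at -1.002 in rods with the cluster mix. The median member of rods was at -0.39 with equal weight, -0.44 with thinning and -0.15 with the cluster mix. With a minimum of 500 CPM, which keeps more of the short members, the median was 0.029 in bipolar cells and 0.11 in amacrine cells. Members past the fold numbered 53 in rods and 30 in cones with thinning, and 10 in rods with the cluster mix. Thinning left out 4479 cells of Ptbp1-Ctrl and 3272 of Ptbp1-KO over all types. No share of all genes is given for thinning or the cluster mix. With a minimum of 500 CPM members past the fold numbered 13 in rods, 9 in cones and 17 in Müller glia, from fewer members. Past a fold of 1.5 there were 0 in rods, 0 in cones, 0 in bipolar cells, 0 in amacrine cells and 1 in Müller glia. No paired analysis was possible because each genotype is 1 library. Leaving out a replicate was not possible for the same reason.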
